A study of Mus musculus with 11 samples.

Results

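Lysosomal genes were followed across the 4 groups of a microarray study of mouse embryonic fibroblasts: 17 acid hydrolases with the hydrolase activator Psap, 6 membrane proteins, the regulators Tfeb and Tfe3, and the vacuolar H+-ATPase (V-ATPase). The members were 41 genes taken from a list of names, with no threshold on their values. All their probes were read from the authors' normalized table through the platform annotation, and 39 genes were measured, of 15908 genes with a probe above background. Atp6v0c and Atp6v1f had no probe. The 39 genes had 70 usable probes. A gene is described, counted and called through its brightest probe unless other probes are named.

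Per the labels all arrays came from p53-/- TSC2-/- fibroblasts, the controls included, and the labels do not say how many lines or clones were used. Cells received a control siRNA against luciferase or one against the bZIP gene Crebl2 for 3 days per the labels (2.5 days in the design text). They then received 20 nM rapamycin or ethanol, its solvent control, for 12 h. The design text writes the siRNA target as Creb2, and the name in the labels, Crebl2, was followed here. Luciferase siRNA was measured on 2 arrays in ethanol and 3 in rapamycin, and Crebl2 siRNA on 3 arrays in each. The labels do not say whether replicates are separate cultures, and the p-values therefore cover no more than the variation among these samples, which may be technical.

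Lysosomes digest proteins, lipids and sugars with hydrolases that need an acid lumen, and the V-ATPase makes that lumen acid by pumping protons with a cytosolic V1 sector, which splits ATP, and a membrane V0 sector, through which protons pass. The kinase complex mTORC1 acts on the lysosomal surface and holds the transcription factors TFEB and TFE3 in the cytosol. TSC2 restrains mTORC1, rapamycin inhibits part of its output, and TFEB and TFE3 bind the palindromic CLEAR element found near the start of many lysosomal genes.

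The CLEAR element was looked for in the promoters of the members, since several of them moved together under rapamycin. Promoter windows from 250 bases before to 50 bases after the transcription start came from RefSeq (GRCm38.p6), and 34 of the 41 members had at least 1, giving 42 windows. GTCACGTGAC, the 10-base element, was in 1 member window, that of Cln3 (2.38% of windows, and 0.326% of all 32851 windows). TCACGTGA, its 8-base core, was in 8 member windows (19%, and 0.974% of all). The 6-base core CACGTG was in 15 (35.7%, and 7.15% of all), and TGACGTCA, the palindrome of the cAMP response element to which many bZIP proteins bind, in 1, that of Gusb (2.38%, and 1.79% of all). Each motif reads the same on both strands, and each longer CLEAR motif contains the shorter ones. The windows of 4 members are shown because these genes differed in direction with rapamycin while holding the same core. Atp6v1a and Mcoln1 fell, and Ctsa and Ctsf rose. Capitals mark TCACGTGA, or CACGTG in Ctsf, and the Mcoln1 window also holds CACGTG in lower case.
Atp6v1a, chr16:44139210-44139509, minus strand: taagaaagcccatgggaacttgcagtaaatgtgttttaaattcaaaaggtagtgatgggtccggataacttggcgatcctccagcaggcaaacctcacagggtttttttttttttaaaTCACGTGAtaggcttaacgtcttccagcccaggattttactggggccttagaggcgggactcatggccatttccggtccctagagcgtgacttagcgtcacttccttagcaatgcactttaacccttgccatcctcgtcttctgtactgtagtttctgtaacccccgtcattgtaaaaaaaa
Mcoln1, chr8:3500269-3500568, plus strand: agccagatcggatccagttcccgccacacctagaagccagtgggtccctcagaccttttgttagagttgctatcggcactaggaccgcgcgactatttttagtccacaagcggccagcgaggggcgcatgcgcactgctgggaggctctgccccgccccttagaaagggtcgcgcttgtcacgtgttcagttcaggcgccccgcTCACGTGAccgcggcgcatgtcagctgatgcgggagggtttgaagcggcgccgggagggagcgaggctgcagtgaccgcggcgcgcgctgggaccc
Ctsa, chr2:164833523-164833822, plus strand: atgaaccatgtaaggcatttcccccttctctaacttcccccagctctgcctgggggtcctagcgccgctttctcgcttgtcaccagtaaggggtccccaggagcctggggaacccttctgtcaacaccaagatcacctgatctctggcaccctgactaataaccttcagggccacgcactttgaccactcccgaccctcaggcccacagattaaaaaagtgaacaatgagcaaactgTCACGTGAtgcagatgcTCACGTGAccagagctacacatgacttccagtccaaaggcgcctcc
Ctsf, chr19:4854915-4855214, plus strand: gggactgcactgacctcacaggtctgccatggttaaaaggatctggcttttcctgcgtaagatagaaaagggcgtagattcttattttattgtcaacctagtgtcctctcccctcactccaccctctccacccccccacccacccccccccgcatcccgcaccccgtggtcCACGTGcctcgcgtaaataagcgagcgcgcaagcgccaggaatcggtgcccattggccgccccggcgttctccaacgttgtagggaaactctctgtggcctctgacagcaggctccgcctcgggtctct
Of the windows of members lower with rapamycin and luciferase siRNA, 4 of 8 held CACGTG, and of those of members higher, 4 of 7. The 8 windows came from 8 of the 12 lower members, and the 7 from 6 of the 7 higher ones. Another Ctsa window, not shown, held none of these motifs. Atp6v0d1, Atp6v0e, Cln3, Ctsd and Gla also held TCACGTGA and did not pass in that comparison. Neu1, the member with the largest decrease, held none of these motifs in its window.

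Across all genes, 4 arrays stood apart from the other 7: array 3 of the knockdown in ethanol and all 3 arrays of the knockdown in rapamycin. Across probes, pairs of log2 profiles correlated at 0.989 to 0.995 inside the set of 4 and at 0.984 to 0.996 inside the set of 7. Pairs with an array from each set correlated at 0.920 to 0.940. Array 3 of Crebl2 siRNA with ethanol lay more than 0.5 (log2) from the mean of arrays 1 and 2 of its own group in 10 of the 39 members, 4 above and 6 below, and in 18.1% of all genes. Arrays 1 and 2 differed by that much in 0 of 39 members and in 0.233% of all genes. Each comparison is therefore given from the limma fit of all 11 arrays, and also without the 4 arrays (7 arrays in the fit) or with the 4 arrays as a block. The arrays had median intensities between 110.5 and 112.4, with 46.9% to 51.2% of probes detected. Fibroblast markers were detected on all arrays for 9 of 10 genes, with Lum on none. Of 10 macrophage markers 2, Csf1r and Cd14, were detected on at least 8 arrays, and Ptprc, Tyrobp and Laptm5 on none. Of 6 epithelial markers 4, Cdh1, Krt8, Krt18 and Krt19, were detected on all arrays, and Cldn4 on none. At least 8 arrays detected 3 of 6 endothelial markers (Cdh5, Kdr and Tek), 2 of 5 muscle markers (Myog and Des) and 0 of 4 liver markers. The Crebl2 probe was dim, at 132 and 133 with luciferase siRNA in ethanol and at 135, 112 and 103 with Crebl2 siRNA, a log2 difference of -0.19 ± 0.13 (SE; adjusted p = 0.470). In rapamycin it was at 117, 149 and 148 and then at 111, 118 and 105, a difference of -0.30 ± 0.12 (SE; adjusted p = 0.082). Neither difference passed, so these arrays do not establish a loss of Crebl2 mRNA. The word knockdown names the siRNA group of the labels. All 3 Tsc2 probes gave signal on all 11 arrays, at 533 to 1014, 582 to 1253 and 132 to 266, and whether they lie in the deleted part of the gene was not analysed here.

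In rapamycin with luciferase siRNA, which asks what rapamycin does to these genes in the control cells, the V-ATPase and the hydrolases went different ways. The V-ATPase genes that passed the test were all lower, most hydrolases that passed were higher, and Neu1, Ctsl and Asah1 were hydrolases that fell. In the fit of all 11 arrays 2 of 39 members rose (Ctsf and Tpp1) and 4 fell (Neu1, Atp6v0b, Atp6v1c1 and Atp6ap2), beside 9.25% of all genes called in either direction (4.8% higher, 4.46% lower). With the 4 arrays as a block 8 rose and 12 fell, beside 11.7% and 9.76% of all genes. Without the 4 arrays, none of which belongs to the groups compared here, 7 rose and 12 fell, beside 21.2% of all genes (11.6% higher, 9.62% lower). The median difference over the members was -0.06 (log2), and over all genes 0.02. The groups did not overlap for 9 higher and 15 lower members, beside 24.3% and 20.2% of all genes (44.5% in either direction). In a bulk sample fewer cells of a type and less RNA per cell cannot be told apart. The summed level of the fibroblast markers was 26805 to 27480 with ethanol and 32672 to 35045 with rapamycin, and that of the macrophage markers 1152 to 1190 and 1088 to 1217. Their part in these differences was not tested.

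**Figure D1:**
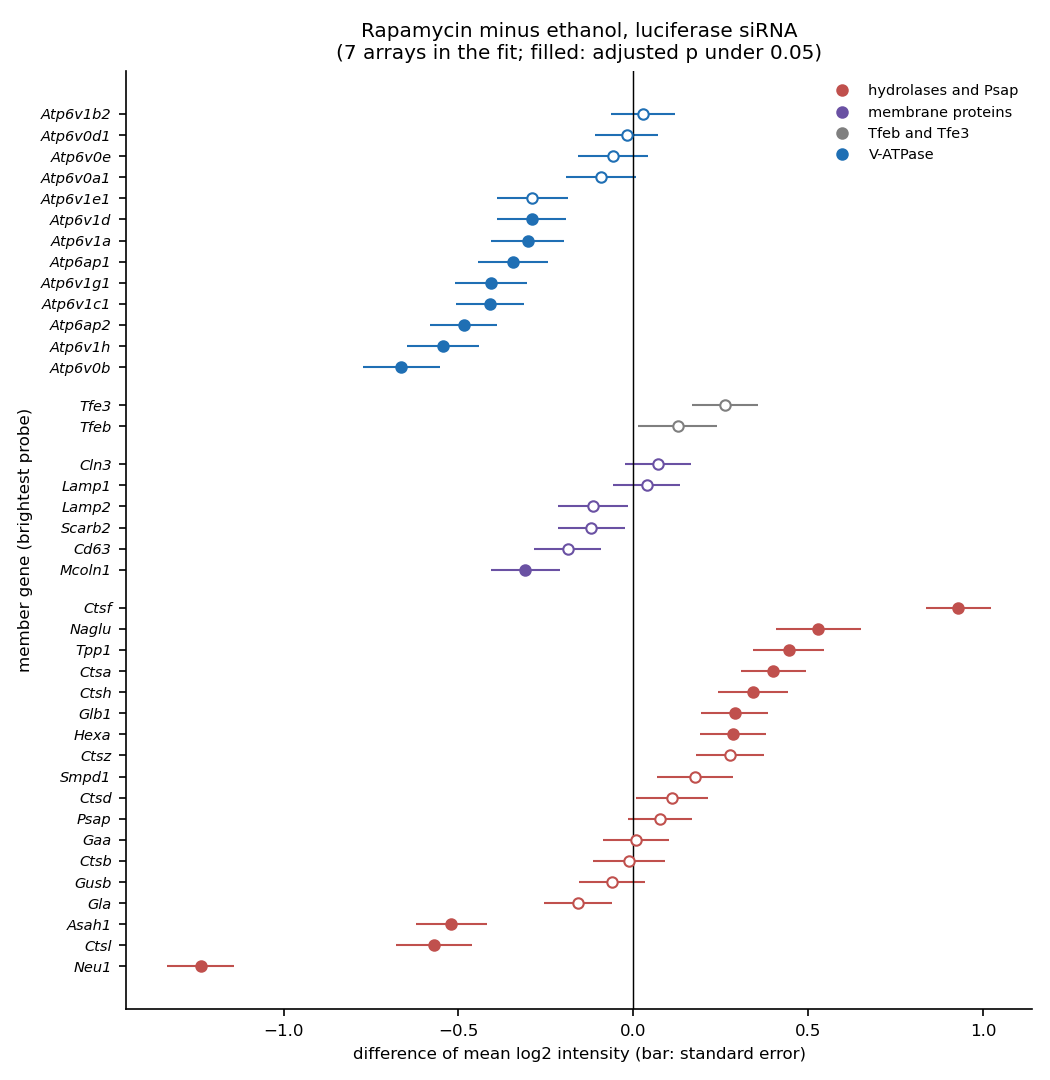
Difference of mean log2 intensity between rapamycin and ethanol with luciferase siRNA (x axis) for the 39 measured member genes (y axis), from the fit of the 7 arrays. Bars are standard errors and filled points passed an adjusted p of 0.05. Of 13 V-ATPase genes 8 passed, all of them lower, while 7 hydrolases passed as higher and 3 as lower, with Neu1 at -1.24 and Ctsf at 0.93 at the ends. Of all genes 11.6% passed as higher and 9.62% as lower.

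Among the V-ATPase genes, 8 of the 13 measured fell and 0 rose in the fit without the 4 arrays, beside 9.62% of all genes lower and 11.6% higher. In the fit of all arrays 3 fell and 0 rose, beside 4.46% and 4.8%. Of the 13 differences 12 were below 0, with a median of -0.30 and a range from -0.66 to 0.03, and for 9 genes all 3 rapamycin arrays lay below both ethanol arrays, beside 20.2% of all genes. The decrease with the smallest adjusted p was that of Atp6v0b, a proteolipid subunit of the proton-conducting ring. Its intensity was 2900 and 3039 with ethanol and 2168, 1864 and 1628 with rapamycin. The groups did not overlap, and the log2 difference was -0.66 ± 0.12 (SE; adjusted p = 0.00644; all 11 arrays). Atp6v1h, the V1 subunit H, which takes part in regulating ATP splitting, was at 2762 and 3045 with ethanol and at 2218, 1987 and 1781 with rapamycin. All 3 rapamycin arrays were lower, by -0.55 (adjusted p = 0.0581 over all arrays, 0.000519 without the 4). Atp6v1c1, the V1 subunit C1 at the joint with V0, read 2019 and 1791 and then 1344, 1451 and 1502. This was a difference of -0.41 ± 0.10 (SE; adjusted p = 0.0363), and both of its probes fell without the 4 arrays.

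Both accessory subunits fell without the 4 arrays. Atp6ap2, also known as the prorenin receptor and needed for V-ATPase assembly, was at 5468 and 4963 with ethanol and at 3662, 3998 and 3527 with rapamycin. Its difference was -0.48 ± 0.11 (SE; adjusted p = 0.0201; all arrays), and all 4 of its probes fell without the 4 arrays, by -0.46 to -0.75. Atp6ap1 differed by -0.34 (adjusted p = 0.171 over all arrays, 0.0177 without the 4). Of the other V1 subunits, Atp6v1g1 in the peripheral stalk fell without the 4 arrays (-0.41; adjusted p = 0.00748). The catalytic subunit A, Atp6v1a (-0.30; adjusted p = 0.0497), and Atp6v1d in the central stalk (-0.29; adjusted p = 0.0454) fell just past the threshold there. None of them passed over all arrays. Atp6v1d was at 357 and 386 and then at 335, 300 and 278. Atp6v1e1, a stalk subunit, differed by -0.29 and just missed the threshold (adjusted p = 0.0529). The remaining 4 genes, Atp6v0a1, Atp6v0d1, Atp6v0e and Atp6v1b2, differed by -0.09 to 0.03 and did not pass. Of the 4 Atp6v0d1 probes 1, not the brightest, passed as lower.

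Among the 17 hydrolases, 7 rose and 3 fell without the 4 arrays, beside 11.6% of all genes higher and 9.62% lower. Over all arrays 2 rose and 1 fell, beside 4.8% and 4.46%. The median difference of the hydrolases was 0.18. Ctsf, the cysteine protease cathepsin F, was at 326 and 294 with ethanol and at 599, 577 and 594 with rapamycin. The rapamycin arrays were close together and far above both controls, a 1.90-fold level and a log2 difference of 0.93 ± 0.14 (SE; adjusted p = 0.00243; all arrays). Tpp1, a serine peptidase that removes tripeptides, went from 337 and 361 to 521, 483 and 423, a difference of 0.44 ± 0.11 (SE; adjusted p = 0.0389; all arrays). The other 5 did not pass over all arrays and passed both without the 4 arrays, as given here, and with them as a block. Naglu, which degrades heparan sulfate, rose from 430 and 459 to 554, 795 and 597, by 0.53 (adjusted p = 0.00323). Ctsa, the protective protein that shields Neu1 and Glb1 in a complex, rose from 694 and 690 to 873, 961 and 907, by 0.40 (adjusted p = 0.00324), but 1 of its 5 probes passed and 2 were below 0. Ctsh, an aminopeptidase cathepsin, was at 500 and 589 and then at 693, 665 and 705, a difference of 0.34 (adjusted p = 0.0189), while its other probe differed by 0.04 (adjusted p = 0.890). Glb1, the lysosomal beta-galactosidase, was at 1386 and 1519 and then at 1660, 1758 and 1911, a difference of 0.29 (adjusted p = 0.0404), with 1 of 3 probes passing. Hexa, a subunit of beta-hexosaminidase, differed by 0.28 (adjusted p = 0.0375).

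Neu1, the sialidase that trims sialic acid from glycoproteins and gangliosides, had the largest difference of any member. It was at 3621 and 3588 with ethanol and at 1562, 1605 and 1425 with rapamycin, 0.424 times the control. The log2 difference was -1.24 ± 0.13 (SE; adjusted p = 0.000494; all arrays), and the groups lay far apart. Ctsl, the endopeptidase cathepsin L, was at 435 and 383 and then at 321, 244 and 265, a difference of -0.57 (adjusted p = 0.0658 over all arrays, 0.000614 without the 4). Asah1, the acid ceramidase, was at 5485 and 5273 and then at 3625, 3426 and 4244. It differed by -0.52 (adjusted p = 0.0650 over all arrays, 0.000781 without the 4), and both of its probes fell in the second fit. The remaining 7 hydrolases, Ctsb, Ctsd, Ctsz, Gaa, Gla, Gusb and Smpd1, differed by -0.16 to 0.28 and did not pass without the 4 arrays. Ctsz, a carboxypeptidase, just missed the threshold there (adjusted p = 0.0508) and passed with the 4 arrays as a block. Psap, the precursor of the saposins, differed by 0.08.

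Of the 6 membrane proteins 1 fell without the 4 arrays and 0 rose, beside 9.62% of all genes lower and 11.6% higher. Over all arrays 0 passed, beside 9.25% of all genes in either direction. The one that fell was Mcoln1, the calcium channel of the lysosomal membrane and a known TFEB target. It was at 298 and 268 with ethanol and at 210, 241 and 235 with rapamycin, a difference of -0.31 (adjusted p = 0.165 over all arrays, 0.0327 without the 4). Lamp1, an abundant coat glycoprotein, was at 6771 and 7141 and then at 7468, 6729 and 7246, so its groups overlapped, with a difference of 0.04. Scarb2, the receptor that carries glucocerebrosidase to the lysosome, was at 432 and 497 and then at 425, 407 and 448, a difference of -0.12. Lamp2, Cd63 and Cln3 differed by -0.19 to 0.07. Tfe3 was at 416 and 423 and then at 490, 536 and 483. The groups did not overlap, and the difference of 0.26 had an adjusted p of 0.236 over all arrays and 0.0611 without the 4. Tfeb was near background, detected on 7 of 11 arrays, and its values of 123 and 112 and then 141, 111 and 134 overlapped. These transcripts give no measure of where either protein was in the cell.

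These counts moved with single arrays. Leaving out either of the 2 ethanol arrays left 2 of 39 members past the threshold in the fit of the other 10 arrays, 1 higher and 1 lower, beside 3.13% and 2.70% of all genes. Leaving out 1 of the 3 rapamycin arrays left 3 or 4, beside 5.53% to 6.25% of all genes. Leaving out array 3 of Crebl2 siRNA with ethanol gave 20, beside 21.5% of all genes. After background subtraction (neqc of limma) Ctsf and Neu1 passed, and with the 4 arrays as a block and an intensity trend in the spread 18 passed. The shares of all genes in these neqc fits are not given here. Of the 16 members with several probes, 9 had all probes on 1 side of 0 without the 4 arrays, and 0 had probes passing in opposite directions.

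**Figure D2:**
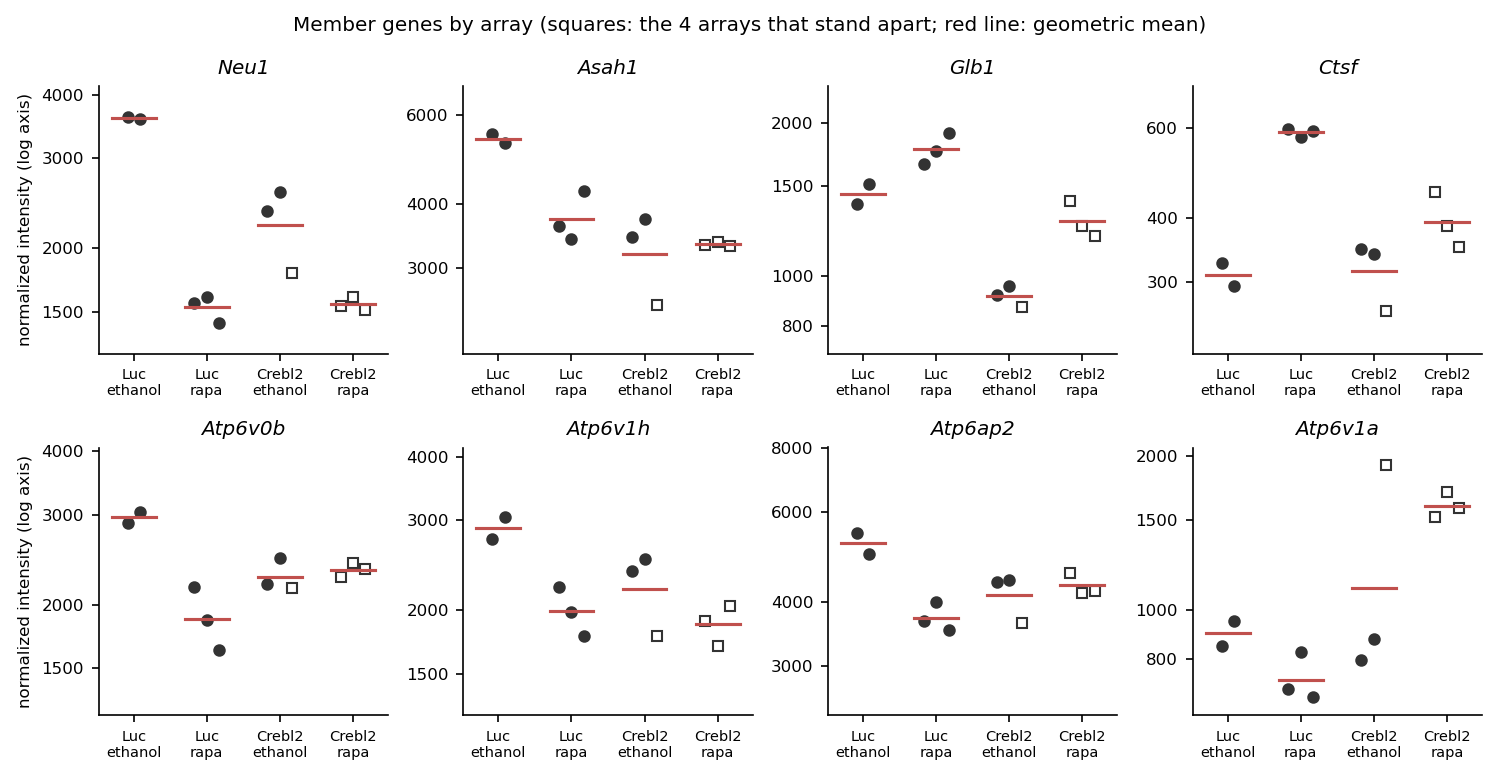
Normalized intensity (log axis) on each of the 11 arrays by group for 8 members, with open squares for the 4 arrays that stood apart and a red line for the geometric mean of a group. Neu1 and the V-ATPase genes Atp6v0b, Atp6v1h and Atp6ap2 were lower in rapamycin than in ethanol with luciferase siRNA. Glb1 and Asah1 were lower with Crebl2 siRNA in ethanol on all 3 arrays, and Atp6v1a on the square arrays lay between 1522 and 1922, above all circles.

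In Crebl2 siRNA in ethanol, which asks what this siRNA does without rapamycin, the members that passed were lower, and hydrolases made up most of them. Over all arrays 6 fell and 0 rose, beside 6.64% of all genes (1.32% higher, 5.32% lower). The 6 were Asah1, Neu1, Glb1, Gusb, Gaa and the V-ATPase subunit Atp6v1b2. Without array 3 and the other arrays that stood apart, 8 fell and 0 rose, adding Ctsa and Ctsl, beside 12.5% of all genes (4.83% higher, 7.69% lower). With the 4 arrays as a block the same number fell, beside 4.9% of all genes higher and 7.76% lower. Over the members 16 were lower and 2 higher without overlap of the groups, beside 24.9% and 12.5% of all genes (37.5% in either direction). Without array 3 these counts were 21 and 4, beside 30.4% and 25.2%. This comparison uses the same 2 control arrays as rapamycin with luciferase siRNA, so the lower values in both are not independent of each other. The summed level of the epithelial markers was 4899 to 4939 with luciferase siRNA and 2662 to 4347 with Crebl2 siRNA. That of the fibroblast markers was 26805 to 27480 and 28120 to 41239. Their part in these differences was not tested.

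Without the 4 arrays 7 of the 17 hydrolases fell, beside 7.69% of all genes lower. Of their 17 differences 14 were below 0, and their median was -0.24, beside -0.01 over all genes. Glb1, the beta-galactosidase, was at 1386 and 1519 with luciferase siRNA and at 919, 957 and 871 with Crebl2 siRNA. Array 3 lay near arrays 1 and 2 here (-0.11 from their mean, log2), and all 3 were below both controls. The difference was -0.67 ± 0.10 (SE; adjusted p = 0.00413) over all arrays and -0.63 without the 4, and the other 2 Glb1 probes differed by -0.06 and 0.11. Asah1, the ceramidase, was at 5485 and 5273 and then at 3447, 3750 and 2538, a difference of -0.75 ± 0.15 (SE; adjusted p = 0.0165), or -0.58 without the 4. Both Asah1 probes fell. Neu1, the sialidase, was at 3621 and 3588 and then at 2368, 2570 and 1788, a difference of -0.70 ± 0.13 (SE; adjusted p = 0.0132), or -0.55 without the 4. For Asah1 and Neu1 array 3 lay below the other arrays of its group, by -0.50 and -0.46 (log2).

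Gusb, the beta-glucuronidase, was at 2709 and 3071 with luciferase siRNA and at 2118, 2146 and 1660 with Crebl2 siRNA. It differed by -0.56 ± 0.12 (SE; adjusted p = 0.0219), or -0.44 without the 4, and all 3 of its probes fell in the second fit. Gaa, which degrades glycogen, differed by -0.39 (adjusted p = 0.0408), or -0.33 without the 4 (adjusted p = 0.0461). Ctsa was at 694 and 690 and then at 516, 525 and 338, a difference of -0.62 (adjusted p = 0.0610) over all arrays and -0.41 (adjusted p = 0.00985) without the 4, with 2 of its 5 probes falling. Ctsl was at 435 and 383 and then at 309, 305 and 236, -0.54 (adjusted p = 0.0918) and -0.41 (adjusted p = 0.0289). Ctsf, Naglu, Ctsh and Tpp1, which rose with rapamycin, differed here by -0.21 to 0.20 without the 4 arrays and did not pass through their brightest probes. One of the 2 Ctsh probes fell.

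In the V-ATPase, 1 of 13 genes fell, Atp6v1b2, the V1 subunit B2. This is near the share of all genes lower, 7.69% without the 4 arrays and 5.32% over all arrays. It was at 5852 and 5663 with luciferase siRNA and at 4514, 4508 and 3548 with Crebl2 siRNA, which differed by -0.47 ± 0.11 (SE; adjusted p = 0.0356), or -0.35 without the 4. The V-ATPase median was -0.10 without the 4 arrays, with 10 of 13 below 0. For 6 V-ATPase genes all 3 knockdown arrays lay below both controls and for 0 above, beside 24.9% and 12.5% of all genes. Without array 3 these counts were 7 and 0, beside 30.4% and 25.2%. Atp6v1h (-0.24), Atp6ap2 (-0.24) and Atp6v0b (-0.35), which were lower with rapamycin, did not pass here, with adjusted p from 0.0685 to 0.202. Of the 4 Atp6ap2 probes 1 other passed as lower (-0.44; adjusted p = 0.0111), as did 1 other of the 4 Atp6v0d1 probes (-0.53; adjusted p = 0.0012). Atp6v1a was at 848 and 953 and then at 797, 878 and 1922, so array 3 alone was high. Of the membrane proteins 0 of 6 passed over all arrays or without the 4 through their brightest probes. The fourth Lamp2 probe by brightness fell by 0.41 without the 4 (adjusted p = 0.0199). Mcoln1 differed by -0.31 (239, 217 and 195 with the knockdown; adjusted p = 0.0711 without the 4). Lamp1 was at 6705, 7564 and 4267, with array 3 far below the other 2 and the controls between 6771 and 7141. Tfe3 and Tfeb differed by 0.07 and -0.04.

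**Figure D3:**
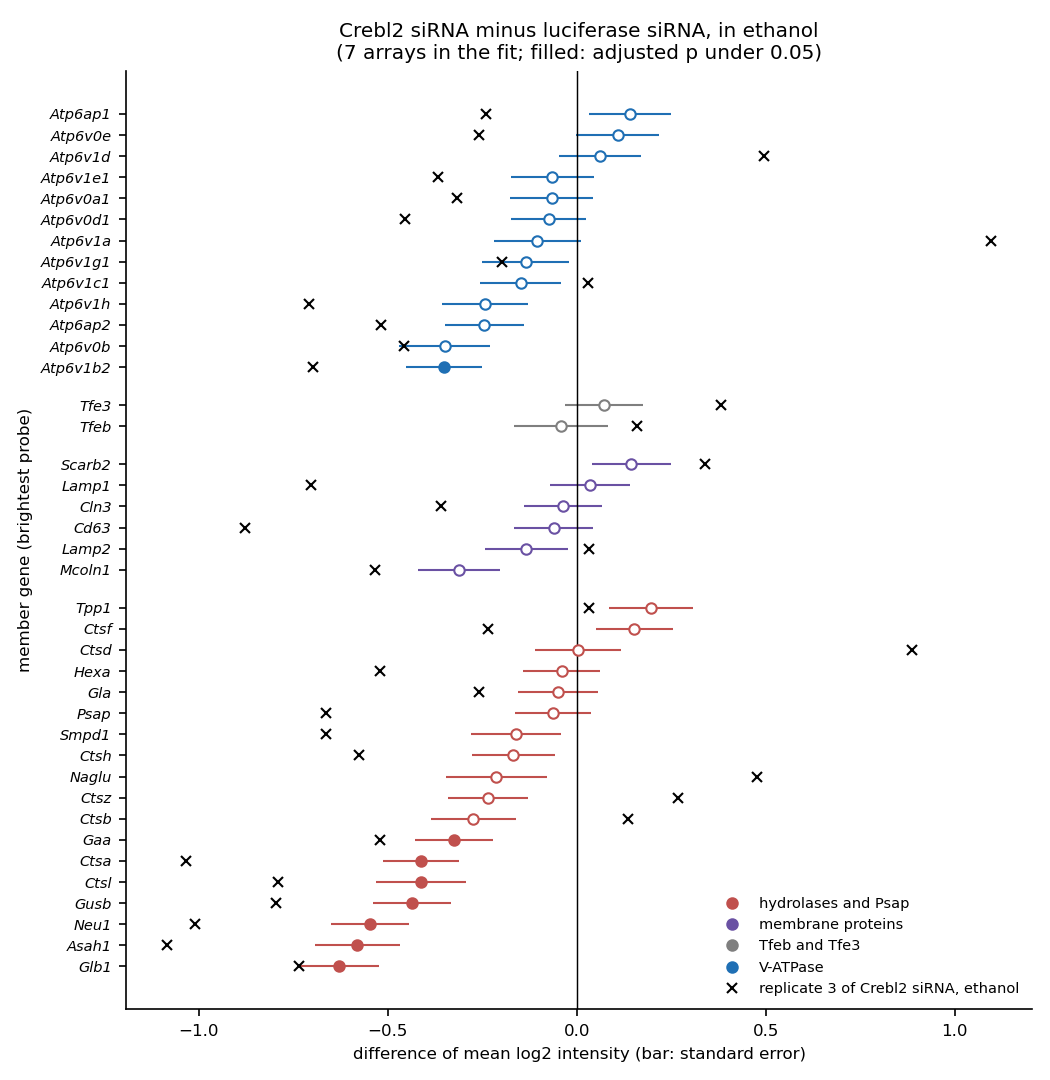
Difference of mean log2 intensity between Crebl2 siRNA and luciferase siRNA in ethanol (x axis) for the 39 members (y axis), from the fit of the 7 arrays, with standard errors and filled points for an adjusted p under 0.05. Crosses show array 3 of Crebl2 siRNA with ethanol, which that fit leaves out, minus the luciferase mean. The 8 filled points, 7 of them hydrolases, are all below 0, beside 7.69% of all genes lower and 4.83% higher. The crosses scatter far more widely than the points.

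These counts moved with single control arrays. Without luciferase ethanol array 1, 1 of 39 members passed over the remaining arrays, and without array 2, 0 passed (12 at an unadjusted p under 0.05), beside 1.90% and 1.04% of all genes. With only the 5 arrays of both groups in the fit 0 members and 0 of all genes passed (11 members at an unadjusted p under 0.05). With the replicate number as a block 2 passed, with no share of all genes given here.

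In Crebl2 siRNA in rapamycin, 8 members were higher and 12 lower over all arrays, beside 32.5% of all genes (11.8% higher, 20.7% lower). All 3 knockdown arrays of this comparison are among the 4 that stood apart and no luciferase array is, so the knockdown and that set of arrays cannot be told apart here. The lower ones were 8 hydrolases, Psap, Cln3, Mcoln1 and Atp6v1b2, and the higher ones 5 V-ATPase genes, Ctsd, Lamp2 and Scarb2. With the 4 arrays as a block, which sets their offset from array 3 of Crebl2 siRNA with ethanol alone, 1 member passed, Atp6ap1 at 0.73 ± 0.16 (SE; adjusted p = 0.0134), beside 2.57% of all genes (1.04% higher, 1.53% lower). Ctsa was at 873, 961 and 907 with luciferase siRNA and at 500, 413 and 445 with Crebl2 siRNA, a difference of -1.02 (adjusted p = 0.00178), and -0.39 (adjusted p = 0.229) with the block. Ctsh, at 693, 665 and 705 and then at 389, 366 and 368, differed by -0.88 (adjusted p = 0.00114), and by -0.47 (adjusted p = 0.132) with the block. Both differences were below 0 in both fits and past the threshold in 1. Through probes other than the brightest, 1 probe of Asah1 (-0.53), 2 of Atp6v0d1 (-0.68 and -0.95) and 2 of Atp6ap2 (-0.45 and -0.32) passed as lower over all arrays and 1 of Cd63 (0.69) as higher. None of these passed with the block. The summed level of the epithelial markers was 4748 to 5388 with luciferase siRNA and 3525 to 3950 with Crebl2 siRNA, and that of the fibroblast markers 32672 to 35045 and 41513 to 43782. Their part in these differences was not tested.

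For Atp6v1a and Ctsd array 3 of Crebl2 siRNA with ethanol lay nearer to the Crebl2 rapamycin arrays than to arrays 1 and 2 of its own group, which were at 797 and 878 for Atp6v1a and at 146 and 136 for Ctsd. Atp6v1a was at 698, 826 and 674 with luciferase siRNA and rapamycin, at 1522, 1704 and 1587 with Crebl2 siRNA and rapamycin, and at 1922 on array 3. Ctsd, the aspartic protease cathepsin D, read through a dim probe, was at 136, 164 and 157, then at 323, 282 and 385, and at 260 on array 3. Scarb2 was at 425, 407 and 448 and then at 674, 717 and 650, and on array 3, at 586, it lay between arrays 1 and 2 (511 and 514) and the rapamycin arrays. Their differences over all arrays, 1.14 for Atp6v1a, 1.11 for Ctsd and 0.67 for Scarb2, were -0.07, 0.23 and 0.48 with the block and did not pass there.

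Lamp2, which encodes a second coat glycoprotein in several splice forms, had probes that went different ways. Of its 6 probes 3 were called higher and 2 lower in Crebl2 siRNA in rapamycin over all arrays. The fifth probe by brightness was at 497, 605 and 564 with luciferase siRNA and rapamycin and at 1695, 2067 and 1681 with Crebl2 siRNA and rapamycin, a log2 difference of 1.71 ± 0.37 (SE; adjusted p = 0.00702). On the 3 arrays of Crebl2 siRNA with ethanol it was at 488, 500 and 1639. The fourth probe was at 2067, 2163 and 2414 and then at 1563, 1527 and 1536, a difference of -0.52 ± 0.13 (SE; adjusted p = 0.0138). On the arrays of Crebl2 siRNA with ethanol it was at 1493, 1660 and 1115, so arrays 1 and 2 were at the level of the knockdown in rapamycin and array 3 was below it. With the block neither probe passed (-0.02 for both). Which transcripts each probe reads was not analysed here. In rapamycin with luciferase siRNA, where none of the 4 arrays enters the groups compared, no Lamp2 probe passed.

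**Figure D4:**
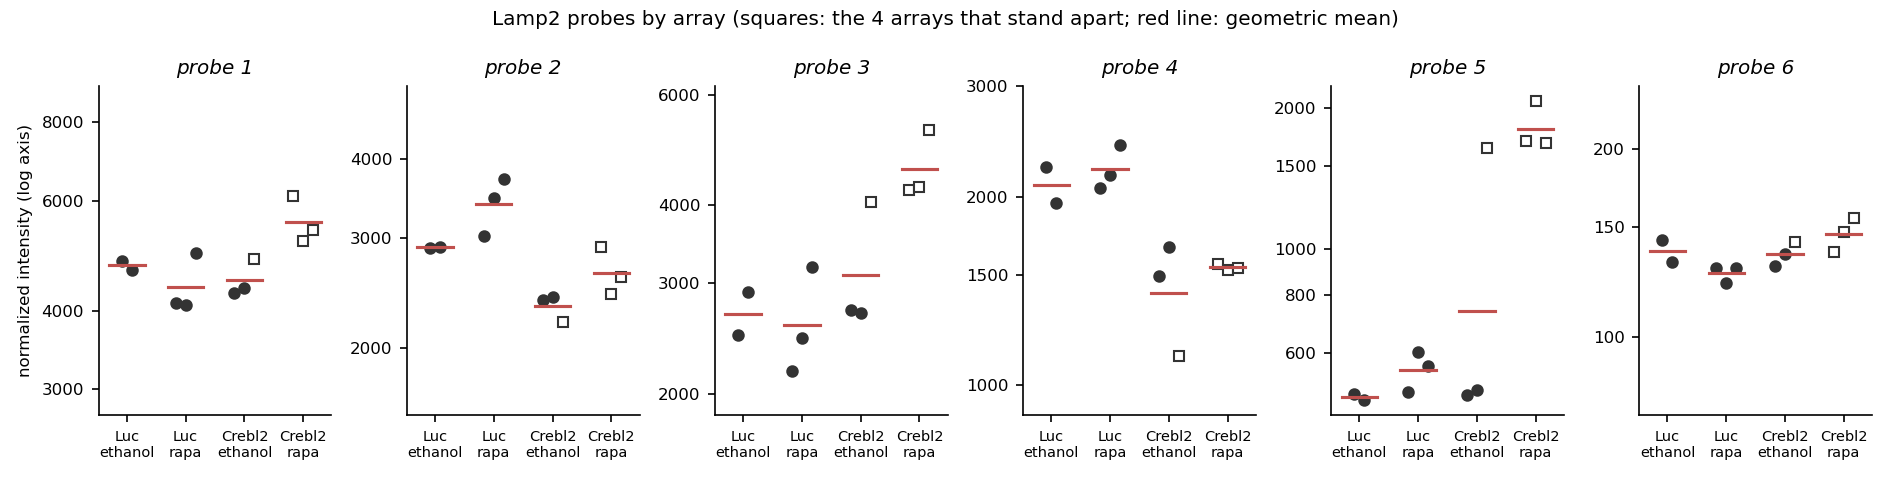
Normalized intensity (log axis) of the 6 Lamp2 probes on each of the 11 arrays by group, ordered by brightness, with open squares for the 4 arrays that stood apart and a red line for the geometric mean of a group. On probe 5 the 4 squares lie between 1639 and 2067 and the 7 circles between 477 and 605, while on probe 4 the squares lie at or below 1563.

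In rapamycin with Crebl2 siRNA, 4 members rose (Ctsd, Glb1, Scarb2 and Tpp1) and 1 fell (Neu1) over all arrays, beside 10.7% of all genes (4.78% higher, 5.89% lower). With the 4 arrays as a block 7 rose and 0 fell, beside 6.6% of all genes (4.13% higher, 2.47% lower), and this value is the mean of the 3 rapamycin arrays minus array 3 alone. Glb1 and Tpp1 rose in both fits, Glb1 through 1 of its 3 probes. Glb1 was at 919, 957 and 871 with ethanol and at 1403, 1253 and 1201 with rapamycin, all above the ethanol arrays, a difference of 0.49 ± 0.09 (SE; adjusted p = 0.0104), or 0.56 with the block. Tpp1 was at 410, 388 and 356 and then at 494, 586 and 563, a difference of 0.51 ± 0.10 (SE; adjusted p = 0.0154), or 0.62 with the block. Ctsf was at 348, 340 and 263 and then at 450, 386 and 351, a difference of 0.32 (adjusted p = 0.116), and of 0.58 (adjusted p = 0.00668) with the block. Neu1 was at 2368, 2570 and 1788 and then at 1536, 1602 and 1511, a difference of -0.52 ± 0.12 (SE; adjusted p = 0.0266), and of -0.21 (adjusted p = 0.411) with the block. Through probes other than the brightest, Ctsz rose over all arrays (0.43; adjusted p = 0.0196) and Lamp2 with the block (0.47; adjusted p = 0.0238). Lamp1 changed side, from -0.04 over all arrays to 0.46 (adjusted p = 0.0267) with the block. Without array 3, 12 rose and 12 fell, beside 38.7% of all genes. In that fit all rapamycin arrays of this comparison, and none of its ethanol arrays, are among the 4 that stood apart. Rapamycin and that set of arrays then cannot be told apart. The groups did not overlap for 9 higher and 3 lower members, beside 11.6% and 13.9% of all genes (25.5% in either direction). Without array 3 this held for 14 higher and 14 lower members, beside 22.7% and 35.8% of all genes (58.5%). Here too rapamycin and the set of 4 arrays cannot be told apart.

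Of the 13 V-ATPase genes 0 passed here over all arrays, beside 5.89% of all genes lower. With luciferase siRNA 3 fell, beside 4.46%. With the block 1 rose (Atp6v1b2) and 0 fell, beside 4.13% and 2.47% of all genes, with a V-ATPase median of 0.11. With the block and luciferase siRNA 8 fell, beside 9.76%. The share of all genes called thus differed between the siRNAs too, and passing with 1 siRNA only is no test of a difference. Atp6v0b was at 2196, 2471 and 2161 with ethanol and at 2272, 2415 and 2350 with rapamycin, a difference of 0.05, or 0.12 with the block. Atp6ap2 was at 4386, 4407 and 3640 and then at 4559, 4169 and 4208, a difference of 0.06, or 0.24 with the block. Its brightest probe thus overlapped between the groups, but the other 3 Atp6ap2 probes fell over all arrays, by 0.56, 0.45 and 0.47 (adjusted p = 0.0189, 0.0122 and 0.0485). With the block these 3 differed by -0.29, -0.37 and -0.16 and did not pass.

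The test of whether rapamycin acted differently with the 2 siRNAs (interaction) gave 0 of 39 members in limma over all arrays (12 at an unadjusted p under 0.05), beside 0.308% of all genes. With the 4 arrays as a block 4 members passed, beside 1.82% of all genes (1.19% higher, 0.622% lower), and for all 4 the rapamycin difference was higher with Crebl2 siRNA than with luciferase siRNA. They were Neu1 (1.03 ± 0.15 SE; adjusted p = 0.000307), Asah1 (0.92 ± 0.16; adjusted p = 0.00195), Atp6v0b (0.78 ± 0.17; adjusted p = 0.0145) and Atp6ap2 (0.73 ± 0.15; adjusted p = 0.0112). Neu1 and Atp6v0b had 1 usable probe each. The other Asah1 probe gave 0.30 (adjusted p = 0.616), and the other 3 Atp6ap2 probes gave 0.39, 0.10 and 0.59 (adjusted p = 0.284, 0.888 and 0.0660), so for these 2 genes the call rested on the brightest probe. For Neu1 the rapamycin difference was -1.24 with luciferase siRNA and -0.21 with Crebl2 siRNA in that fit, and Crebl2 siRNA differed from luciferase siRNA by -0.55 in ethanol and by 0.48 (adjusted p = 0.0977) in rapamycin. Without the block the difference in rapamycin was 0.02, with intensities of 1425 to 1605 with luciferase siRNA and 1511 to 1602 with Crebl2 siRNA. All 13 V-ATPase differences were above 0 in the block fit, with a median of 0.37, beside 0.02 over all genes. Without array 3 of Crebl2 siRNA with ethanol 16 members passed, 11 above and 5 below 0, beside 27.3% of all genes, so the interaction calls rested on how that array was treated. Without it, the interaction and the offset of the arrays that stood apart cannot be told apart.

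**Figure D5:**
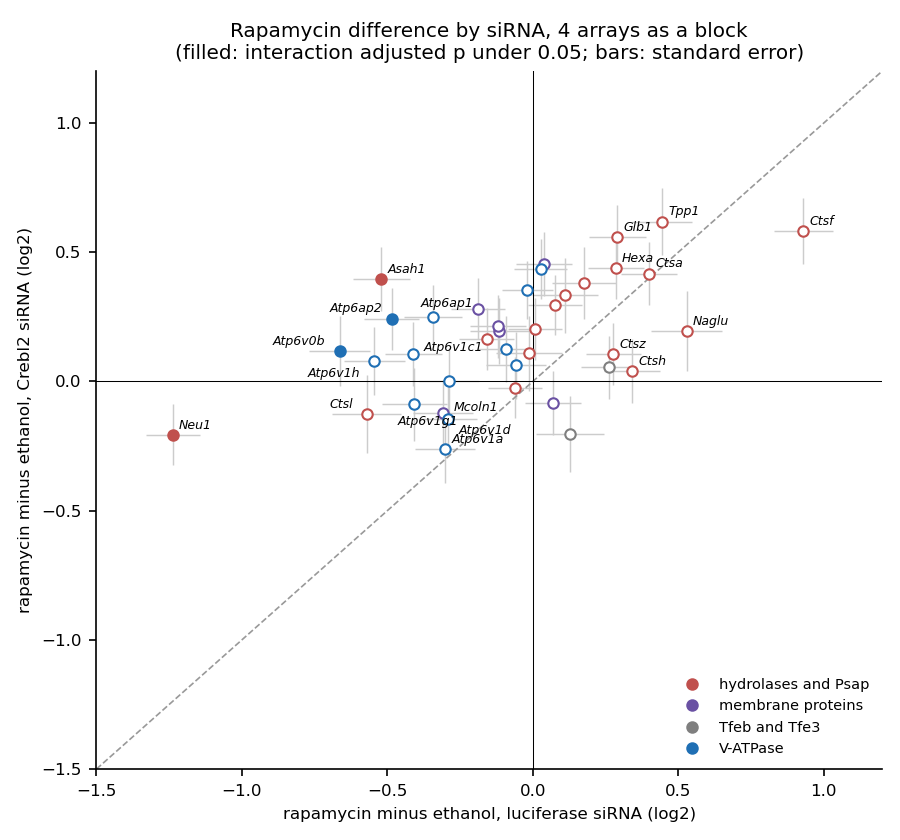
Rapamycin difference (log2) with luciferase siRNA (x axis) against that with Crebl2 siRNA (y axis) for the 39 members, from the fit with the 4 arrays as a block. Bars are standard errors, filled points passed the interaction test, the dashed line marks equal differences, and names are given to members that passed with luciferase siRNA. Neu1, Asah1, Atp6v0b and Atp6ap2 are filled and lie above the line, while Tpp1, Glb1, Hexa and Ctsa are above 0 on both axes.

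Lysosomal genes outside the members, from a list of 86 names of which 71 were measured, are given for comparison. In rapamycin with luciferase siRNA without the 4 arrays 14 rose and 8 fell (5 and 1 over all arrays), and 49 did not pass. Of all genes 11.6% were higher and 9.62% lower without the 4, and 4.8% and 4.46% over all arrays. Those that rose included Dnase2a, the acid DNase (0.71 ± 0.10 SE; adjusted p = 1.89e-05), and Gm2a, the activator that presents GM2 ganglioside to hexosaminidase (0.65 ± 0.09; adjusted p = 2.92e-05). Sidt2, a lysosomal nucleic acid transporter, rose by 0.60 and Idua, which degrades dermatan and heparan sulfate, by 0.55. Among the 8 other V-ATPase isoforms measured Atp6v1g2 (0.53) and Atp6v0a2 (0.38) rose and 0 fell. Of 11 regulators at the lysosome 3 fell, the folliculin gene Flcn (-0.50), its partner Fnip1 (-0.35) and the Rag GTPase gene Rragc (-0.34), and 1 rose, the Ragulator gene Lamtor2 (0.56). The cholesterol exporter Npc1 fell (-0.41) while Npc2, which hands cholesterol to it, rose (0.47).

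In Crebl2 siRNA in ethanol without the 4 arrays 9 of these 71 genes fell and 3 rose (9 and 1 over all arrays), beside 7.69% of all genes lower and 4.83% higher without the 4 and 5.32% and 1.32% over all arrays. Of the 28 further hydrolases and activators 7 fell and 0 rose. Gm2a was at 2536 and 2818 with luciferase siRNA and at 1706, 1606 and 1082 with Crebl2 siRNA, and differed by -0.69 ± 0.10 (SE; adjusted p = 0.000105). Arsb, a sulfatase, differed by -0.59, Pld3, a lysosomal nuclease, by -0.52, and Lgmn, an asparaginyl endopeptidase, by -0.48. Npc1 fell by 0.70 and the sialic acid exporter Slc17a5 by 0.46. The 3 that rose, Rragb, Lamtor1 and Lamtor2, encode parts of the Rag and Ragulator complexes, which dock mTORC1 on lysosomes. Some of these genes showed the set-apart arrays strongly: Rraga was at 113 to 145 on the 7 arrays and at 1215 to 1546 on the 4, and Npc2 at 1144 to 1907 and at 5899 to 8735.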

How the data were processed

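Biotin-labelled cRNA of 11 RNA samples was hybridised to single-colour Illumina mouse arrays, per the labels' protocols. The authors' normalized table holds linear intensity values and detection p-values for every probe on every array, per the file headers. The deposited series matrix holds the same values (0 differ). The sources used here do not give scanner software, background step or normalization method. Probes with a detection p-value over 0.5 had median intensities of 96.6 to 98.4, so background was not subtracted and changes of dim probes are understated on the log2 scale. The non-normalized file has identifiers that do not belong to its values (correlation by identifier -0.00964 to -0.00628) and served only after its 46237 lines were matched by rank, as an alternative.

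Probe names came from the platform annotation (35784 with 1 symbol, 10453 with none). A probe entered if its detection p-value was under 0.05 on 2 or more arrays, which 28936 of 46237 did. The log2 intensities entered 1 fit of limma 3.58.1 (R 4.3.3; files were read with the data.table package, version 1.17.8) with 4 groups, no block, and 7 residual and 3.64 prior degrees of freedom. Adjustment was by Benjamini-Hochberg over all kept probes, with a threshold of 0.05. The fit was run on simulated data with known changes in 200 probes, for rapamycin with luciferase siRNA only. Those data held no offset of the 4 arrays, so the run says nothing about it. Deviations of same-numbered arrays from their group means correlated at -0.106 to 0.146 over 15 pairs. This range does not settle whether the numbers pair the arrays. In Crebl2 siRNA with ethanol the deviations include the shift of the array that stood apart. Members, lists and alternatives were chosen with earlier results of these data known. Values per array are given for Tfeb, Tfe3, Mcoln1, Lamp1, Ctsd and the 16 members with the smallest adjusted p, and for others where a comparison turns on them. Levels of different probes were not compared.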

Additional observations from a re-analysis of the deposited data

Results flagged for a closer look

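The response to rapamycin differed between the 2 siRNAs for 4 members in the fit with the 4 arrays as a block, by the interaction test: Neu1 by 1.03, Asah1 by 0.92, Atp6v0b by 0.78 and Atp6ap2 by 0.73 (log2). The other probes of Asah1 (1) and Atp6ap2 (3) did not pass it. In the fit of all 11 arrays without the block 0 members passed it. The block value rests on 1 array, replicate 3 of Crebl2 siRNA with ethanol, for the ethanol level with Crebl2 siRNA on the 4 arrays.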

How the results depend on the processing

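Members past the threshold over all 11 arrays numbered 6 in rapamycin with luciferase siRNA, 5 in rapamycin with Crebl2 siRNA, 6 in Crebl2 siRNA in ethanol, 20 in Crebl2 siRNA in rapamycin and 0 in the interaction. Of all genes 9.25%, 10.7%, 6.64%, 32.5% and 0.308% passed. In that order neqc, on either table, gave 2, 0, 1, 12 and 0 (without a call in rapamycin with Crebl2 siRNA, 10 members had an unadjusted p under 0.05). The 4 arrays as a block gave 20, 7, 8, 1 and 4, beside 21.5%, 6.6%, 12.7%, 2.57% and 1.82% of all genes. The member medians were then 0.16 in rapamycin with Crebl2 siRNA, 0.16 in Crebl2 siRNA in rapamycin and 0.22 in the interaction. Only the groups compared gave 15, 0, 0 and 23 in the first 4, and the fit without the 4 arrays 19 and 8 in the first and the third. Neqc with the block, chosen after seeing the data, gave 6, 0, 2, 0 and 0, and with an intensity trend added, chosen likewise, 18, 6, 7, 1 and 4, both with medians of 0.14, 0.15 and 0.20 in the comparisons named. Lamp1 in rapamycin with Crebl2 siRNA reversed from -0.04 to 0.46 with the block and to 0.40 with neqc, the block and the trend. Neqc without a trend gave dim and bright probes 1 prior spread; the cause of its lower counts was not tested.

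With the replicate number as a block the counts were 7, 7, 2, 20 and 0, and only the third moved by over 1.5 times. Whether the numbers pair the arrays could not be settled here. Leaving out 1 array at a time gave 2 to 20, 1 to 24, 0 to 8, 11 to 25 and 0 to 16 members. The share of all genes called was 2.70% to 21.5%, 2.89% to 38.7%, 1.04% to 12.7%, 22.7% to 44.3% and 0% to 27.3%. The member medians were -0.0584 to 0.00264, -0.0415 to 0.106, -0.228 to -0.134, -0.0959 to -0.0748 and 0.0651 to 0.172. The highest count in each came without replicate 3 of Crebl2 siRNA with ethanol. Of 44 gene results, 26 past the threshold, 44 kept their direction and side of it without the filter on dim probes and with a stricter one, and 41 with quantile normalization or median scaling. With 2 control arrays and no background subtraction, small changes of dim probes such as Tfeb and Crebl2 could not be resolved.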
